A study of Homo sapiens with 12 samples.

Results

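The 10 genes described here are noncoding genes whose introns carry small nucleolar RNAs (snoRNAs): GAS5, SNHG1, SNHG3, SNHG5, SNHG6, SNHG8, SNHG12, SNHG15, SNHG16 and EPB41L4A-AS1. They were chosen by symbol, as hosts whose spliced RNAs are known to be removed by decay that depends on translation. Earlier results of these data were known at the time of the choice. The count table held 58735 genes, of which 16891 had enough counts to be tested, and all 10 hosts were among them. FDX2-iKO ES2 cells, made from an ovarian carcinoma line of human origin, gave the counts. In all 4 conditions the endogenous FDX2 gene, which encodes a mitochondrial ferredoxin of iron-sulfur cluster assembly, had been knocked out by genome editing. An exogenous FDX2-HA that resists editing was under a Doxy-dependent promoter, so that FDX2 was kept with Doxy (+ Doxy) and lost without it (wo Doxy). FDX2 loss here thus means culture without Doxy. No condition separates the drug from FDX2, so their effects cannot be told apart. Cells at 20% O2 were cultured for 6 days with or without Doxy. Cells at 3% O2 had 4 days of preculture at 20% O2 and then 3 days at 3% O2, so oxygen and the length of culture changed together and cannot be told apart. By the submitters' account 1 of the paired read files of 20% O2 + Doxy replicates 1 and 2 was lost in transfer, and whether their counts came from both reads was not checked. They describe 3 biological replicates per condition, which gave 12 libraries of 1 engineered line. By the study's methods the cells were clone #1 where nothing else is stated.

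A snoRNA host is transcribed, spliced and, from the intron that is cut out, releases a snoRNA that guides the modification or cleavage of ribosomal RNA. The spliced RNA left over often starts with a C and a run of pyrimidines, the 5′ terminal oligopyrimidine tract also found in ribosomal protein mRNAs, and it is loaded onto ribosomes although it has only short reading frames. Translation then exposes it to nonsense-mediated decay, which makes the level of a spliced host RNA depend on transcription, on ribosome loading and on decay. GAS5, the best known of these RNAs, was named for its accumulation in cells that stop growing. Box C/D snoRNAs guide ribose methylation and box H/ACA snoRNAs guide pseudouridylation, with a few of either class acting in the cleavage of the precursor.

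The first bases of the host RNAs are shown because the tract at the 5′ end is the feature by which such RNAs couple to translation. For 6 of the 8 hosts with such a model, the GENCODE release 29 transcript with the longest tract was taken, its first 30 bases are given 5′ to 3′ (GRCh38), and capitals mark the initial C and the pyrimidines that follow it without a break. A tract here means a C followed by at least 4 pyrimidines.
GAS5-210 (chr1:173867960-173867989, minus strand): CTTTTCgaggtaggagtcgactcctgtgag
SNHG16-204 (chr17:76557769-76557798, plus strand): CTTTTCgaggtcggccgcgtggctggaaga
SNHG8-205 (chr4:118278758-118278787, plus strand): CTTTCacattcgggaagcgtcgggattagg
SNHG5-202 (chr6:85678704-85678733, minus strand): CTTTTacgtcggccttcgcgagcgtctggg
SNHG3-203 (chr1:28506043-28506072, plus strand): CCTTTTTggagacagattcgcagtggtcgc
SNHG12-202 (chr1:28581844-28581873, minus strand): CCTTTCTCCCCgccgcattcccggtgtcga

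SNHG1 and SNHG6 also had such a model and are not printed. GAS5 and SNHG16 begin with the same 6 bases in these models. A tract opened 6 of 29 annotated transcripts of GAS5, 2 of 8 of SNHG16, 1 of 5 of SNHG8, 3 of 23 of SNHG5, 1 of 3 of SNHG3, 4 of 17 of SNHG12, 3 of 5 of SNHG6 and 1 of 25 of SNHG1. It opened none of the 10 transcripts of SNHG15 and none of the 4 of EPB41L4A-AS1, against 2.41% of 206694 annotated transcripts of all genes. Annotated starts are often incomplete, and the counts do not say which start was used. At the RefSeq starts of the 8 hosts held there, a tract was present in SNHG12 and SNHG5 alone (2 of 8, against 4.07% of 35116 promoters), so that its presence depends on the annotation. In the RefSeq promoter windows (GRCh38.p14, 250 bases before to 50 after the start), which held 8 of the 10 hosts, an E-box (CACGTG) and the element TGATGNAA were in none of the 8, against 7.26% and 3.62% of 35116 promoters on either strand. The core ACGTG, which an E-box would also contain, was in SNHG8 and EPB41L4A-AS1 (2 of 8, against 21.4%), and TATAAA was in SNHG1 (1 of 8, against 11.5%). These are matches of letters in 1 window per start and say nothing about the factors.

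Library totals lay between 24958386 and 34313637 counts. FDX2 itself had 0.0648 to 0.411 CPM (counts scaled to a common library total) in the 12 libraries, with overlapping ranges in all conditions, too little to check the labels of any library. Of the markers set down for ovarian carcinoma, 5 were tested: KRT7, KRT18, KRT8, VIM and PAX8. WT1, EPCAM, MUC16 and NAPSA had at most 9 counts in any library. Of 9 markers of blood, endothelium and muscle, 8 were too low to test, with at most 20 counts in any library, and the other, the endothelial cadherin CDH5, had 24.7 CPM ± 3.27 at 20% O2 + Doxy and 45.1 ± 5.88 at 3% O2 wo Doxy (SD, n = 3). Its part in the results was not tested. Libraries of a condition differed in the hosts as a group. In 3% O2 + Doxy replicate 3, 8 of the 10 hosts were at the lowest value of their condition, at a median of -0.21 (log2) from the other 2 libraries, and the 81 ribosomal protein genes lay at -0.14. In 3% O2 wo Doxy replicate 2 it was also 8 hosts, at -0.12, and in 20% O2 + Doxy replicate 1 it was 7, at -0.16. The first of these had the largest deviation, and values that it moved by over 1.5 times are given without it.

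Levels are in CPM on totals scaled by the trimmed mean of M-values (TMM), and, where genes are compared, in CPM per kb of the median annotated spliced length. At 20% O2 + Doxy, GAS5 was the most abundant host per kb, at 702 CPM per kb ± 46.6. It was followed by SNHG1 (240 ± 15.6), SNHG16 (204 ± 12.4), SNHG6 (203 ± 26.4), SNHG8 (115 ± 10.1), SNHG5 (92.0 ± 9.86), SNHG15 (70.9 ± 2.55), SNHG3 (68.7 ± 3.82), SNHG12 (62.4 ± 1.38) and EPB41L4A-AS1 (33.4 ± 3.23), all SD with n = 3. In this order only SNHG16 and SNHG6, and SNHG15 and SNHG3, had neighbouring means within their SDs.

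After FDX2 loss at 20% O2, GAS5, SNHG8 and EPB41L4A-AS1 were higher and SNHG3 and SNHG16 were lower, while 5 hosts did not pass the test. GAS5 rose 1.94-fold and SNHG8 rose 1.67-fold, and the fall of SNHG3 to 0.689 times its level with Doxy was the largest decrease. Among all genes tested 17.6% were called higher and 17.7% lower (adjusted p under 0.05), so that 3 of 10 higher and 2 of 10 lower stood close to the background. The hosts had a median log2 fold change of 0.19, against 0.01 over all genes. In bulk RNA, fewer cells that express a gene and less of its RNA per cell cannot be told apart.

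GAS5 had 389, 431 and 442 CPM in replicates 1 to 3 with Doxy, and 794, 837 and 813 CPM without. Every library without Doxy lay above every library with it, and the log2 fold change was 0.95 ± 0.0866 (standard error, edgeR, adjusted p = 1.3e-05). SNHG8, the host of the H/ACA snoRNA SNORA24, had 49.4, 54.1 and 58.9 CPM with Doxy and 87.9, 92.5 and 91.2 CPM without. Its groups did not overlap, with a log2 fold change of 0.74 ± 0.148 (edgeR, adjusted p = 0.00277). EPB41L4A-AS1, which holds SNORA13 and lies on the strand opposite to the gene it is named for, had 28.9, 33.8 and 34.8 CPM with Doxy and 42.0, 47.0 and 45.3 CPM without. Its log2 fold change was 0.46 ± 0.103 (edgeR, adjusted p = 0.00504), again without overlap.

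SNHG3, the host of the pair of U17 snoRNAs SNORA73A and SNORA73B, which act in the cleavage of the ribosomal RNA precursor, went the other way. It had 153, 159 and 142 CPM with Doxy and 100, 106 and 106 CPM without, and every library without Doxy lay below those with it. The log2 fold change was -0.54 ± 0.0520 (edgeR, adjusted p = 2.0e-05). SNHG16, which holds the box C/D snoRNAs SNORD1A, SNORD1B and SNORD1C, had 168, 184 and 189 CPM with Doxy and 139, 140 and 132 CPM without. These groups did not overlap either, with a log2 fold change of -0.40 ± 0.0545 (edgeR, adjusted p = 0.000242).

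Of the 5 hosts not called, SNHG6, the host of SNORD87, had a log2 fold change of 0.32 ± 0.156 (adjusted p = 0.137). In a fit of only the libraries compared, SNHG6 was called higher (0.32, edgeR, adjusted p = 0.0234). For SNHG5, which holds SNORD50B, the value was 0.22 ± 0.154, and for SNHG1, the host of a cluster of box C/D snoRNAs, 0.17 ± 0.0692. In these 3 genes all libraries without Doxy lay above all with it although the test in all 12 libraries was not passed. SNHG12, the host of 3 H/ACA snoRNAs and SNORD99, and SNHG15, the host of SNORA9 and a short-lived RNA, had overlapping libraries and values of -0.02 ± 0.0799 and -0.06 ± 0.0494. In all, 6 hosts lay wholly above, against 26.5% of all genes, and 2 wholly below, against 25.8%. A fit without the library 3% O2 + Doxy replicate 3, which is not in this comparison but shares its estimate of the spread, called 5 hosts higher, with SNHG6 at 0.32 (adjusted p = 0.0177) and SNHG1 at 0.17 (adjusted p = 0.0454) added, and the same number lower.

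**Figure D1:**
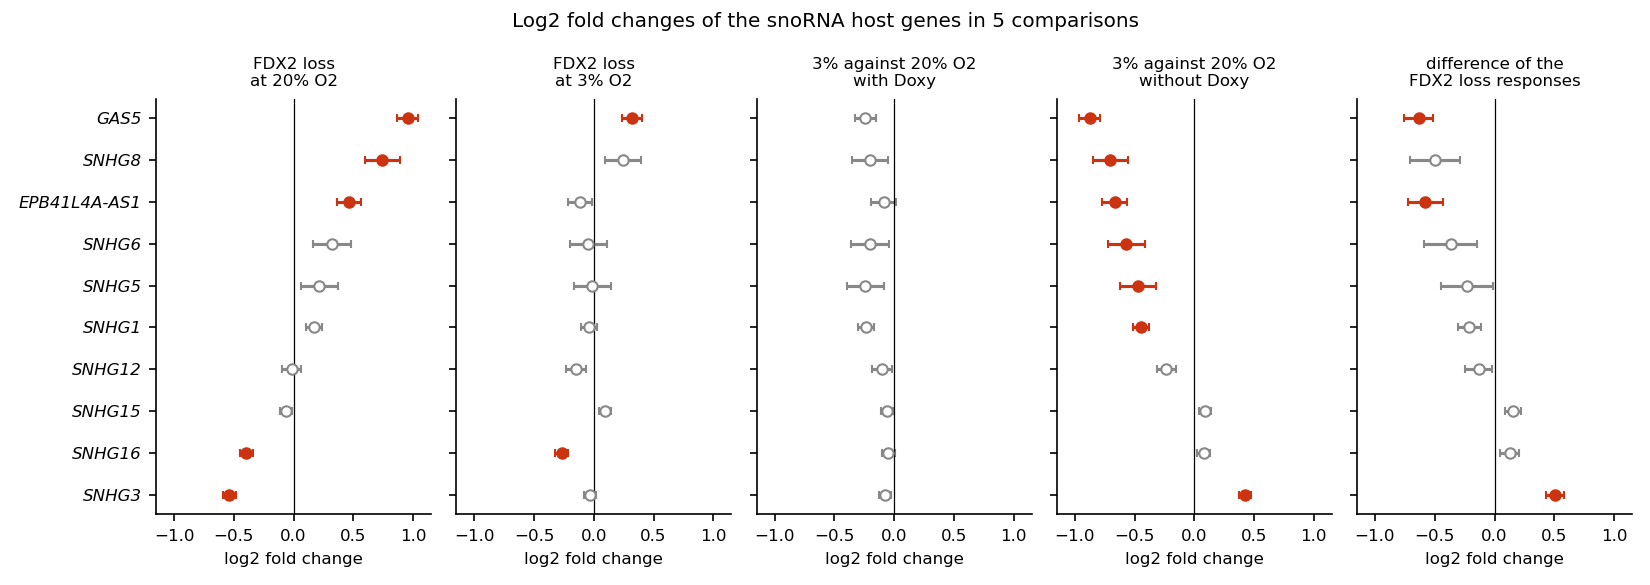
Log2 fold changes of the hosts (x axes) in the 5 comparisons, with genes ordered by the response to FDX2 loss at 20% O2 and bars for the standard error of the edgeR fit. Filled red points passed an adjusted p of 0.05. GAS5 runs from 0.95 in the first panel to -0.87 in the fourth, and SNHG3 from -0.54 to 0.43, and these 2 comparisons share the 3 libraries at 20% O2 wo Doxy.

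FDX2 loss at 3% O2 gave 1 called host in each direction. GAS5 had 381, 378 and 309 CPM with Doxy and 462, 405 and 467 CPM without, so that the groups did not overlap although they came near each other, and the log2 fold change was 0.32 ± 0.0861 (edgeR, adjusted p = 0.0480). That call was lost without any 1 of 5 of the 6 libraries compared (adjusted p = 0.0656, 0.114 and 0.0750 without 3% O2 + Doxy replicates 1 to 3, 0.116 and 0.120 without 3% O2 wo Doxy replicates 1 and 3). SNHG16 had 170, 178 and 175 CPM with Doxy and 146, 140 and 149 CPM without, wholly below, and its log2 fold change was -0.27 ± 0.0545 (edgeR, adjusted p = 0.0142). Without replicate 2 of 3% O2 + Doxy the adjusted p was 0.0694, and without replicate 2 of 3% O2 wo Doxy it was 0.0612. SNHG16 was thus the host with a fall at both oxygen levels, and the difference between its responses was 0.13 ± 0.0771 (adjusted p = 0.358). SNHG8 had 52.6, 54.3 and 34.3 CPM with Doxy and 61.3, 49.2 and 56.4 CPM without, which overlapped, with a log2 fold change of 0.24 ± 0.149, or 0.06 without 3% O2 + Doxy replicate 3. SNHG3 had a value of -0.03 ± 0.0518. The background was 4.2% of genes called higher and 3.11% lower, and 2 hosts lay wholly above and 1 wholly below, against 13.4% and 11.2% of all genes. The median of the hosts was -0.04, against 0.04 over all genes. Without 3% O2 + Doxy replicate 3 it was -0.14, with SNHG6 at -0.24, SNHG5 at -0.20, EPB41L4A-AS1 at -0.20 and SNHG1 at -0.10, none of them called.

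Oxygen dependence of the FDX2 loss response was tested directly, as the change at 3% O2 minus the change at 20% O2. It was lower for GAS5, at -0.64 ± 0.122 on the log2 scale (edgeR, adjusted p = 0.0113), and for EPB41L4A-AS1, at -0.58 ± 0.146 (adjusted p = 0.0386). For SNHG3 it was higher, at 0.50 ± 0.0733 (adjusted p = 0.00286), with changes of -0.54 at 20% O2 and -0.03 at 3% O2. Over all genes 3.21% were called higher and 4.08% lower, beside 1 and 2 of the 10 hosts. SNHG8 had a difference of -0.50 ± 0.210 that did not pass (adjusted p = 0.181). Without the library 3% O2 + Doxy replicate 3, SNHG8 (-0.68, adjusted p = 0.00922) and SNHG6 (-0.55, adjusted p = 0.0271) were called as well, which made 4 hosts lower. The call of EPB41L4A-AS1 was lost when any 1 of 9 of the 12 libraries was left out, with adjusted p between 0.0672 and 0.121. GAS5 and SNHG3 kept theirs without any single library. Over all the alternatives the adjusted p reached 0.0495 for GAS5, close to the threshold, and 0.0172 for SNHG3.

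Low oxygen with Doxy gave no call among the hosts in the edgeR test, in either direction, with 2 hosts (GAS5 and SNHG1) at an unadjusted p under 0.05. DESeq2 called 1 lower, SNHG1, at -0.24 (adjusted p = 0.0406). The background was low as well, with 1.63% of genes called higher and 0.385% lower. All 10 log2 fold changes were below 0, from -0.24 for SNHG5 to -0.05 for SNHG16, with a median of -0.15 against -0.0045 over all genes. They were smaller without 3% O2 + Doxy replicate 3, with a median of -0.05, SNHG5 at -0.06, SNHG8 at -0.02, SNHG6 at -0.013, EPB41L4A-AS1 at -0.0083 and GAS5 at -0.15. The 81 ribosomal protein genes had a median of -0.11 in the same comparison. No host lay wholly above and 3 lay wholly below (GAS5, SNHG1 and SNHG12), against 8.83% and 6.61% of all genes.

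Without Doxy the oxygen comparison was the one with most calls among the hosts. At 3% against 20% O2, GAS5, SNHG8, EPB41L4A-AS1, SNHG6, SNHG5 and SNHG1 were lower and SNHG3 was higher. Among all genes 13.9% were called higher and 11.9% lower, so that 6 of 10 lower was above the background share. Since the hosts were chosen with earlier results of these data known, that excess is no independent sign of a response. The median of the hosts was -0.46, against 0.07 over all genes. These values share the libraries at 20% O2 wo Doxy with the first comparison and are not an independent sign of the pattern seen there.

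GAS5 fell by 0.87 on the log2 scale, from 815 CPM ± 21.9 to 444 ± 34.4 (SD, n = 3), with a standard error of 0.0865 (edgeR, adjusted p = 7.4e-05). At 3% O2 wo Doxy it was thus close to the 420 CPM ± 27.9 of the cells with Doxy at 20% O2. SNHG8 went from 90.5 CPM ± 2.34 to 55.6 ± 6.11, a log2 fold change of -0.70 ± 0.149 (adjusted p = 0.00637). EPB41L4A-AS1 went from 44.8 CPM ± 2.51 to 28.2 ± 2.88, a log2 fold change of -0.67 ± 0.103 (adjusted p = 0.00114). SNHG6 had 146, 143 and 136 CPM at 20% O2 and 91.3, 90.7 and 105 CPM at 3% O2, a log2 fold change of -0.57 ± 0.157 (adjusted p = 0.0223). SNHG1 had 202, 209 and 211 CPM at 20% O2 and 158, 143 and 155 CPM at 3% O2, with -0.45 ± 0.0694 (adjusted p = 0.00113). In SNHG5 the values were 65.7, 71.7 and 68.1 CPM and then 49.8, 44.8 and 53.6 CPM, with -0.47 ± 0.155 (adjusted p = 0.0450). None of these 6 genes had overlapping groups.

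SNHG3 rose from 104 CPM ± 3.29 to 140 ± 3.70, a log2 fold change of 0.43 ± 0.0520 (edgeR, adjusted p = 0.000259), again without overlap. SNHG12 (-0.23 ± 0.0803, adjusted p = 0.0534), SNHG15 (0.09 ± 0.0494) and SNHG16 (0.08 ± 0.0546) did not pass. In all, 2 hosts lay wholly above and 7 wholly below, against 27.4% and 22.0% of all genes. Same-numbered libraries of this comparison deviated together, although no label states that they are paired. With the replicate block in all 12 libraries SNHG5 (adjusted p = 0.0852) and SNHG6 (adjusted p = 0.0513) lost their calls, which left 4 hosts lower. In the 6 libraries compared with the block, a fit chosen after seeing the data, SNHG12 was called too (-0.25, adjusted p = 0.0206), which made 7 hosts lower and 1 higher. SNHG12 was also called lower by the DESeq2 test (adjusted p = 0.0180). In edgeR it was called with DESeq2 size factors (0.0399) and with at least 10 counts in every library (0.0296). It was called as well without ribosomal protein and mitochondrial genes (0.0353), without 20% O2 wo Doxy replicate 1 (0.0362) and without 3% O2 wo Doxy replicate 3 (0.0387). SNHG5 lost its call without any single library of the 6 (adjusted p = 0.0610 to 0.144), and SNHG6 lost it without any of 5 of them (adjusted p up to 0.0782).

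Both classes of snoRNA were found on either side. SNHG3 and SNHG8 both hold H/ACA snoRNAs and went opposite ways after FDX2 loss at 20% O2, as did GAS5 and SNHG16, hosts of box C/D snoRNAs. The snoRNAs themselves could be followed only in part, since the libraries were made from poly(A) RNA with size selection. GENCODE release 29 places 22 snoRNA genes within 9 of the hosts on the same strand, and none within GAS5. The 18 that share bases with an annotated exon of the host, retained introns included, had 0 counts in all 12 libraries. The 4 that lie outside every exon had counts. Of 152 snoRNA genes in all that lie wholly within exons of a gene on their own strand, 0 had a count, so that these zeros are no measure of the snoRNAs.

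**Figure D2:**
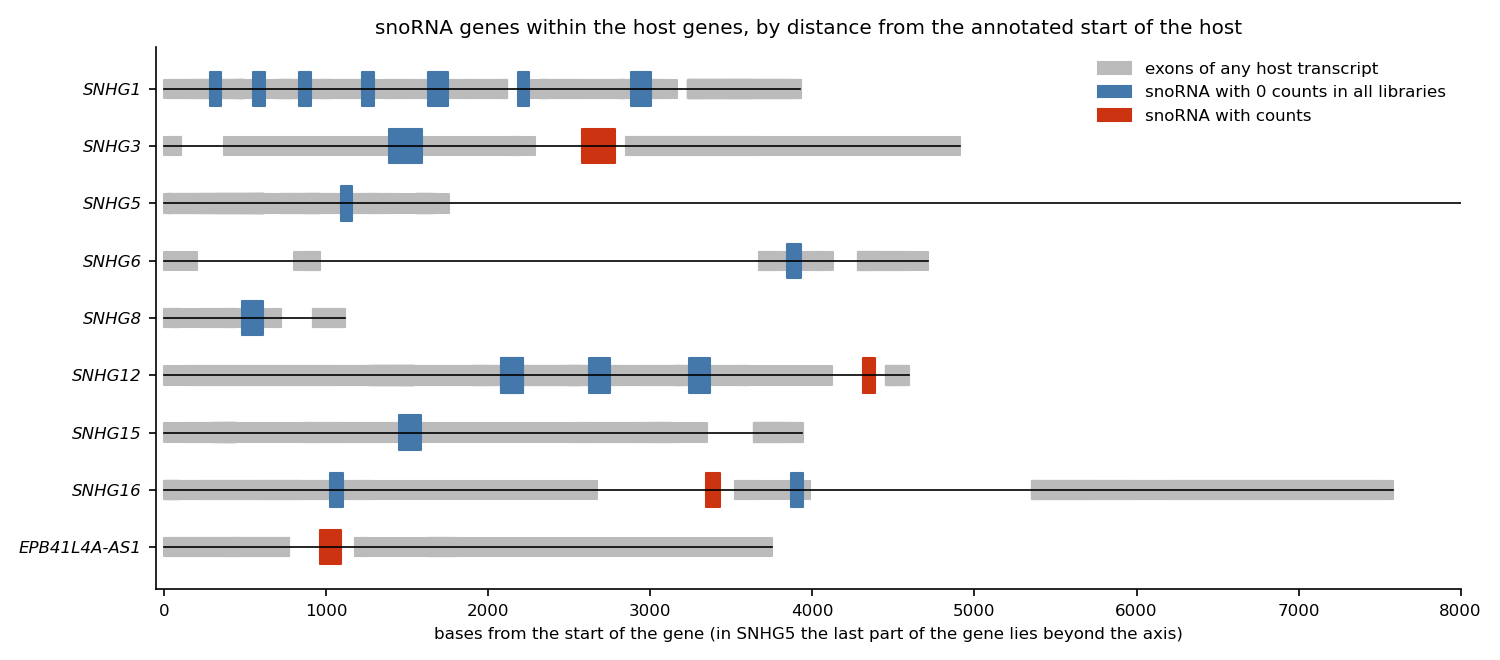
The 9 hosts with annotated snoRNA genes, drawn from the annotated start of each gene to the right in bases (x axis). Grey blocks are exons of any transcript, blue boxes the 18 snoRNA genes with 0 counts in all 12 libraries, and red boxes the 4 with counts, which all lie outside the grey blocks.

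The counted snoRNA genes were SNORA73B in SNHG3, SNORD99 in SNHG12, SNORA13 in EPB41L4A-AS1 and SNORD1B in SNHG16. Reads there may come from the snoRNA or from unspliced host RNA. For SNORA73B they may also come from unspliced RNA of RCC1, which overlaps SNHG3 on the same strand. The source of the reads was not tested. SNORA73B is printed as the one whose counts changed with its host. Its sequence, from the GRCh38 reference, has the ACA box near the 3′ end in capitals.
SNORA73B (chr1:28508559-28508762, plus strand): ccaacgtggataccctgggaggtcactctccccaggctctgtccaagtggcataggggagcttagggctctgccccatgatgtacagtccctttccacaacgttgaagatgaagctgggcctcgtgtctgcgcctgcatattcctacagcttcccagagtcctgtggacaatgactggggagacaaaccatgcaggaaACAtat

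SNORA73B had 135, 143 and 144 counts at 20% O2 + Doxy and 86, 100 and 77 counts at 20% O2 wo Doxy. The groups did not overlap, and the log2 fold change was -0.70 ± 0.145 (edgeR, adjusted p = 0.00328), beside -0.54 for SNHG3. At 3% O2 it was -0.11 ± 0.145, beside -0.03 for SNHG3. In the oxygen comparison without Doxy it was 0.30 ± 0.146 and not called (adjusted p = 0.151). SNORA13 had 8 to 21 counts in any library, and its log2 fold change after FDX2 loss at 20% O2 was -0.19 ± 0.293, while its host EPB41L4A-AS1 rose. SNORD99 had -0.39 ± 0.254 there. SNORD1B, with 4 to 11 counts, was not tested. For the last 3 genes these numbers of counts leave errors too wide to tell a change of the size seen in the hosts.

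Other genes counted near or over the hosts were set beside them. The strand setting of the counting is not stated, and reads from overlapping genes could be lost or divided between them. Of 1139 genes that lie wholly within exons of a gene on their own strand, 7.64% had a count. Of 710 that lie wholly within exons on the opposite strand and share none on their own, 68.2% had one. Among 41758 genes that share no exonic base with another gene it was 47.9%. The part of the overlaps in the calls of the hosts was not tested. EPB41L4A-AS1 shares 49.6% of its exonic bases with EPB41L4A on the other strand, which had 344 counts in the 12 libraries together against 12214 for the host. SNHG6 shares 36.4%, mostly with MCMDC2 (647 counts against 40384), and SNHG16 33.4%, mostly with AC015802.6 (893 against 56878). SNHG3 shares 242 exonic bases with RCC1 on its own strand, a gene with 58703 counts. GAS5 shares 1.16%. Where 95 genes of the table lie within an exon on the other strand of 1 gene, their counts per base were a median of 9.11% of those of the gene that contains them.

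The neighbour that shares the start region of SNHG1 is SLC3A2, which encodes the heavy chain of amino acid transporters and starts 188 bases away on the other strand. SLC3A2 rose from 204 CPM ± 17.9 to 406 ± 7.67 after FDX2 loss at 20% O2 (log2 fold change 0.99 ± 0.0623, edgeR, adjusted p = 1.0e-06), where SNHG1 had 0.17. Without Doxy it was lower at 3% than at 20% O2, at -0.60 ± 0.0619, where SNHG1 had -0.45. ZBTB37 is a zinc finger gene on the strand opposite to GAS5. Its start (chr1:173868082) lies 800 bases from the outermost annotated start of GAS5, within the annotated span of GAS5. The GAS5-210 model printed above begins nearer to it, at 173867989. ZBTB37 had 0.27 ± 0.0714 after FDX2 loss at 20% O2 (edgeR, adjusted p = 0.0132), where GAS5 had 0.95. Without Doxy it had -0.25 ± 0.0716 at 3% against 20% O2 (adjusted p = 0.0272), where GAS5 had -0.87.

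Further noncoding snoRNA hosts also moved in both directions. Of 20 listed, 18 were tested, and after FDX2 loss at 20% O2 5 rose and 3 fell, with a median log2 fold change of 0.07. SNHG32 (1.17 ± 0.131, adjusted p = 5.8e-05) and SNHG30 (0.94 ± 0.140) had the largest increases, and DANCR (-0.61 ± 0.0523) and SNHG4 (-0.37 ± 0.0510) the largest decreases. At 3% O2 SNHG30 rose (0.63 ± 0.142) and SNHG4 fell (-0.32 ± 0.0511). With Doxy, oxygen changed none of the 18 in the edgeR test. Without Doxy 4 were lower at 3% O2, led by SNHG32 (-0.98 ± 0.131) and ZFAS1 (-0.90 ± 0.117), and DANCR was higher (0.32 ± 0.0524). In the difference of the responses SNHG32 (-0.93 ± 0.184) and ZFAS1 (-0.77 ± 0.165) were lower and DANCR (0.52 ± 0.0738) was higher.

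Protein-coding genes also hold snoRNAs in their introns, and their calls are given for comparison with no test of the difference. Of the 17 ribosomal protein genes that hold snoRNAs, RPL4 alone was called after FDX2 loss at 20% O2, at 0.27 ± 0.0395, and the median was 0.02. The call of RPL4 was the only 1 in the difference of the responses as well, at -0.24 ± 0.0559. The 16 other coding hosts, which serve mainly in translation, ribosome assembly and protein folding, had 2 rises and 10 falls and a median of -0.27. HSPA8, a constitutive HSP70 chaperone, fell by 0.97 on the log2 scale and NOP56, a core box C/D snoRNP protein, by 0.65, while EIF4A2 (0.45 ± 0.0662) and TPT1 (0.38 ± 0.0716) rose. At 3% O2 2 of the 16 fell and 1 rose. Without Doxy 8 of them were higher and 2 lower at 3% than at 20% O2.

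The proteins that act on host RNAs were counted from lists chosen by function. Of 18 factors of nonsense-mediated decay and translation termination, 2 rose and 5 fell after FDX2 loss at 20% O2, with a median of -0.14. UPF1, the central helicase of the pathway, fell by 0.56 on the log2 scale (standard error 0.150, adjusted p = 0.0135), and EIF4A3, a core protein of the exon junction complex, by 0.48, while NBAS (0.18 ± 0.0595) was among those that rose. Without Doxy UPF1 was higher at 3% than at 20% O2, at 0.49 ± 0.150, one of 5 factors that were higher and with none lower. The difference of the responses called none of the 18. Of the 15 proteins of box C/D and H/ACA snoRNPs and their assembly, 1 rose and 7 fell at 20% O2, and the assembly factor ZNHIT6 was the one that rose (0.37 ± 0.0865). NOP56 and RUVBL2 (-0.54 ± 0.134) had the largest decreases. RUVBL2 ranged from 121 to 168 CPM at 20% O2 + Doxy (median 129), against 91.3 to 98.8 CPM at 20% O2 wo Doxy.

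Transcripts known from general knowledge as targets of nonsense-mediated decay did not move one way. Of 14, 6 rose and 5 fell after FDX2 loss at 20% O2, with a median of 0.13. The rises were led by DDIT3 (2.49 ± 0.0599) and ATF3 (2.29 ± 0.157), transcription factors of the stress response, and the falls by SRSF2 (-1.02 ± 0.0896) and HNRNPDL (-0.67 ± 0.0622), splicing regulators. Of 16 targets of ATF4, the transcription factor of the integrated stress response, 13 rose and none fell, with a median of 0.91. DDIT3 and ATF3 stand in both lists. At 3% O2 3 of the ATF4 targets rose and 2 fell, with a median of -0.04. In the difference of the responses 11 were lower and none higher, with a median of -0.92, beside 2 of the 10 hosts lower and 1 higher. Whether the changes of these lists had a part in those of the hosts was not tested.

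Likeness to the hosts was measured across the 4 conditions, as the root mean square difference between a gene's mean log2 levels relative to 20% O2 + Doxy and the median host's, over 3 conditions. Relative to 20% O2 + Doxy the median host had 0.20 at 20% O2 wo Doxy, -0.16 at 3% O2 + Doxy and -0.22 at 3% O2 wo Doxy. In all, 10790 tested genes averaged 5 CPM or more, listed genes included. Of those outside the lists the most alike were SCOC, SGSH, HSDL2, RDX and MOB1B, all protein-coding, at 0.0135 to 0.0217. Of the hosts, SNHG1 lay nearest to the median (0.0543) and GAS5 farthest (0.474), so that the median describes few of them.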

How the data were processed

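Poly(A) RNA of the 12 libraries was sequenced by the authors on the DNBSEQ-T7 platform (150 bp reads). Per the labels it was aligned with STAR to GRCh38 and assigned to genes with featureCounts, whose strand setting, annotation and version are not given in the sources used here. The deposited values are raw counts per gene, with DESeq2 named for the authors' own normalization. All 58735 identifiers are those of GENCODE release 29. Counts were filtered with filterByExpr of edgeR 4.0.16 (minimum count 10, minimum total 15), scaled by TMM and fitted with the quasi-likelihood model in R 4.3.3, with 4 condition means over 12 libraries and Benjamini-Hochberg adjustment over 16891 genes. The common biological coefficient of variation was 16.3%. Steps were tested on simulated counts. Some genes of the lists are not reported here by name. DESeq2 1.42.0 was an alternative, beside other scaling, filters, thresholds, a replicate block and leaving out libraries. The host genes and gene lists were chosen with earlier results of these data known. All 10 hosts are named, and from other lists at most the 2 largest increases and decreases called, plus genes discussed for their role in the overlaps. Same-numbered libraries without Doxy at 20% and 3% O2 deviated together (correlations 0.247 to 0.363, differently numbered ones of these conditions -0.432 to 0.0756). No further pair of conditions had all 3 above 0.1. Between 20% O2 + Doxy and 3% O2 + Doxy, differently numbered libraries reached 0.818. The labels state no pairing. Annotation overlaps and promoter motifs were read from GENCODE and RefSeq. Levels carry the SD over 3 libraries, and depth limits the snoRNA genes most.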

Additional observations from a re-analysis of the deposited data

Results flagged for a closer look

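In 3 hosts the change with FDX2 loss was unequal at the 2 oxygen levels, by the interaction term of the edgeR fit. For GAS5 the response at 3% minus that at 20% O2 was -0.64 (adjusted p = 0.0113), from 0.95 at 20% and 0.32 at 3% O2. For EPB41L4A-AS1 it was -0.58 (adjusted p = 0.0386), from 0.46 and -0.12. That call is the least stable of the 3, since it was lost without any 1 of 9 libraries and with the replicate block, with adjusted p up to 0.121. For SNHG3 it was 0.50 (adjusted p = 0.00286), from -0.54 and -0.03. In each of these 3 genes the 3 libraries at 20% O2 wo Doxy did not overlap those of the other 3 conditions. The cells at 3% O2 had also been cultured longer, which cannot be told apart from oxygen.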

How the results depend on the processing

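Of 830 values of single hosts under the alternatives, 755 kept their direction and their side of the threshold, 54 lost the call, 13 gained it and 8 changed sign without a call in that comparison, while none of the called values changed sign. After FDX2 loss at 20% O2 the call of at least 1.5-fold left 0 hosts lower and also removed the increase of EPB41L4A-AS1. With only the libraries compared, SNHG6 was called higher as well (edgeR, adjusted p = 0.0234). The fit without 3% O2 + Doxy replicate 3, chosen after seeing the data, gave 5 higher. Leaving out single libraries gave 3 to 5 higher and 2 lower. At 3% O2 the count of 1 higher went to 0 with DESeq2 size factors, with no filter, with at least 10 counts in every library, with the replicate block, with only the libraries compared, without ribosomal protein and mitochondrial genes, at an adjusted p under 0.01 and at 1.5-fold. The count of 1 lower went to 0 with only the libraries compared, at an adjusted p under 0.01 and at 1.5-fold, and leaving out single libraries gave 0 to 1 in both directions. Between 3% and 20% O2 with Doxy, DESeq2 called 1 lower in place of 0. Without Doxy, 1.5-fold left 0 higher and 3 lower, and the replicate block gave 1 higher and 4 lower in 12 libraries and 1 higher and 7 lower in the 6 compared, a fit chosen after seeing the data. SNHG12 was also called lower there with DESeq2, with DESeq2 size factors and with at least 10 counts in every library. The same held without ribosomal protein and mitochondrial genes. In the difference of the responses, the replicate block gave 1 lower in place of 2, 1.5-fold 0 higher and 1 lower, and an adjusted p under 0.01 0 lower, while leaving out single libraries gave 1 to 4 lower. The replicate block changed no call of the first comparison. The cause of these changes was not tested. No scaling moved the median of all genes by over 0.1 (log2).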
